A study of Mus musculus with 6 samples.

Results

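The genes described here are 10 annexin and S100 genes of mouse liver, namely the annexins Anxa1, Anxa2, Anxa3, Anxa5 and Anxa6 and the S100 genes S100a1, S100a4, S100a6, S100a10 and S100a11. They were taken by gene name from the 34745 genes of the expression table, and S100 genes of neutrophil granules were left out. Livers were profiled by bulk RNA-Seq in WT mice injected with acetaminophen (APAP, 300 mg/kg, 12 hours) or with saline, in both cases after a fast of 12 hours. Per the methods, the mice were male C57BL/6J aged 8 to 10 weeks. Of 6 samples, 3 per group, the libraries of APAP replicates 1 and 3 were analyzed here together with 3 saline libraries, which carry the names WT1, WT2 and WT3. APAP replicate 2 was not analyzed here. Since every sample has the genotype WT, the WT columns were taken for saline only by contrast with those whose names hold APAP. Nothing in the labels says that the libraries came from separate mice, so the p-values measure the spread between these libraries.

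Annexins are proteins that bind negatively charged phospholipids when calcium rises, and they act in membrane traffic, in the resealing of torn plasma membranes and in the clearance of dying cells. S100 proteins are small EF-hand proteins that mostly work as dimers, and several of them bind to the N-terminus of a given annexin. S100a10 joins Anxa2 in a heterotetramer at the plasma membrane, S100a11 binds Anxa1, and S100a6 binds several annexins. In liver these genes are known from bile duct epithelium, mesenchymal cells and leukocytes as well as from injured hepatocytes.

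The total read count was between 13378445 and 15976339 per library, and 3 counts corresponded to between 0.176 and 0.269 CPM. Counts were normalized by edgeR's TMM method, and levels are given as CPM on that scale. Albumin, the defining hepatocyte transcript, took 6.56% to 11.3% of all counts. Sex-linked genes separated the groups, although male mice are named in the methods. Xist, the RNA that silences an X chromosome, stood at 0.764 and 1.73 CPM in the APAP libraries, against 289.6 to 914 CPM in saline libraries, whereas Ddx3y, on the Y chromosome, reached 79.0 and 61.7 CPM against counts of 0, 0 and 1. Treatment and sex-linked expression therefore cannot be told apart for any difference given here.

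All 10 genes passed the filter on low counts. Anxa2, S100a11, S100a10, S100a6, Anxa1 and Anxa5 were higher with APAP, by 2.46-fold (Anxa5) to 9.38-fold (Anxa2) in the ratio of group means. These 6 were called, that is, their p in edgeR's quasi-likelihood test was under 0.05 after Benjamini-Hochberg adjustment over 13734 genes, where 7.23% of the genes tested were called, 3.70% higher and 3.53% lower. The calls comprised 3 of 5 annexins and 3 of 5 S100 genes. Of the other 4 genes, S100a4 and Anxa3 had positive fitted values and S100a1 and Anxa6 negative ones, with adjusted p between 0.168 and 0.294. None of the 10 was called lower, and the count of lower genes was also 0 at an unadjusted p under 0.05, in DESeq2, in the likelihood ratio test and in the exact test. The median log2 fold change of the 10 genes was 1.58, beside 0.03 for all genes tested. In 9 of the 10 the APAP and the saline libraries did not overlap (8 higher and 1 lower with APAP), where 44.1% of the genes tested did not overlap (24.0% higher and 20.1% lower). A fold change of 1.5 or more together with an unadjusted p under 0.05 was found for 8 of the 10 genes, all higher, where 23.5% of the genes tested passed and 12.3% passed as higher. Without APAP replicate 1 the 6 calls fell to 1, as they did without WT2, and the call left was Anxa2 in both cases. Without APAP replicate 3, WT1 or WT3, 4, 5 and 5 genes were called.

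**Figure D1:**
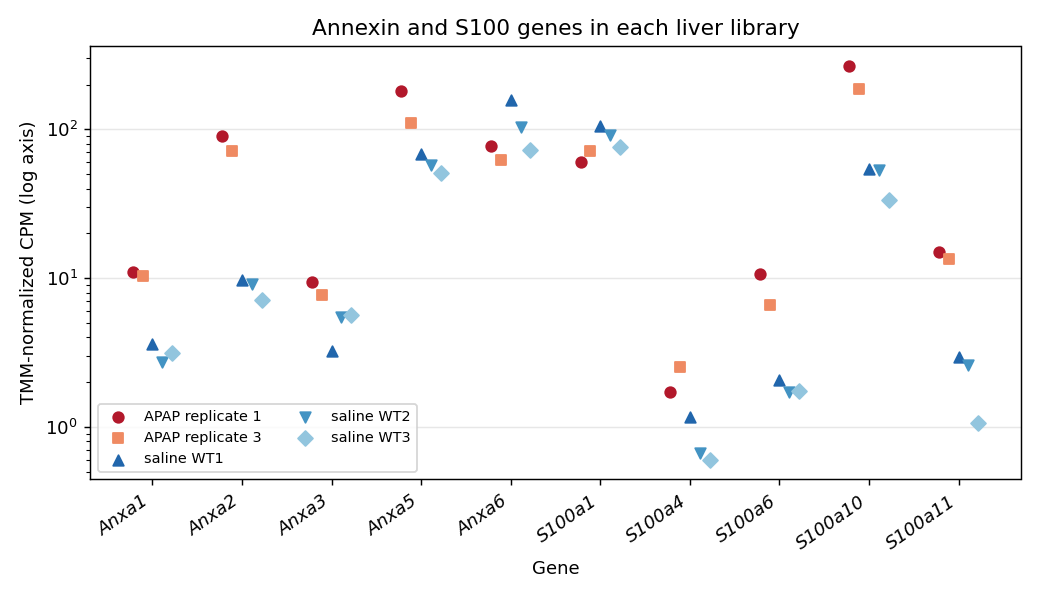
TMM-normalized CPM (log axis) of each of the 10 genes in the 2 APAP libraries and the 3 saline libraries, 1 point per library. Anxa2 and S100a10 stand clear of saline in both APAP libraries, while Anxa6 overlaps between the groups and S100a1 lies below the saline points.

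Anxa2 (ENSMUSG00000032231, chromosome 9 of GRCm38, 69453620 to 69491795, plus strand), an annexin of the cell cortex that links membrane to actin and assembles plasminogen and its activator at the cell surface, changed most. It was at 90.7 and 72.1 CPM in APAP replicates 1 and 3 and at 9.77, 9.10 and 7.15 CPM in WT1, WT2 and WT3. The lower APAP library was 7.38 times the highest saline library, so the groups were far apart. The means were 81.4 ± 13.1 CPM (SD, n = 2) and 8.67 ± 1.36 CPM (SD, n = 3). Its log2 fold change of 3.23 (standard error 0.23, 95% interval 2.68 to 3.78) had an adjusted p of 0.00182 in edgeR's quasi-likelihood test. Only 1.37% of the genes tested had a higher fitted value. Under the 13 alternative fits its log2 fold change was between 3.06 and 3.64, and the adjusted p was under 0.05 in all 13.

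S100a10 (ENSMUSG00000041959, chromosome 3, 93555080 to 93564643, plus strand), the partner that holds Anxa2 in its heterotetramer and that has lost the ability to bind calcium, stood at 268 and 187 CPM in the APAP libraries, against 54.5, 53.3 and 33.7 CPM in WT1, WT2 and WT3. Both APAP libraries were above all saline libraries, although APAP replicate 1 was 1.43 times replicate 3 and the highest saline library 1.62 times the lowest. The difference in means, 228 ± 57.5 CPM (SD, n = 2) against 47.2 ± 11.7 CPM (SD, n = 3), corresponded to 2.27 on the log2 scale (standard error 0.30, adjusted p = 0.0100). In the fits without APAP replicate 1 and without WT2, the adjusted p was 0.0561 and 0.0579, with log2 fold changes of 1.99 and 2.37.

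CPM were divided by the length in kilobases of each gene's principal transcript in GENCODE M21, so that genes could be compared. On this scale S100a10 was 6.25 and 5.48 times Anxa2 in the APAP libraries and 11.8, 12.4 and 9.97 times Anxa2 in the saline libraries. S100a10 was thus the more abundant transcript in every library, with the smaller ratios in the APAP libraries, and the groups did not overlap.

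S100a11 (ENSMUSG00000027907, chromosome 3, 93520488 to 93526287, plus strand), the S100 protein that binds the N-terminus of Anxa1, had the second highest fitted value. Its level was 14.9 and 13.4 CPM in the APAP libraries and 2.96, 2.59 and 1.07 CPM in WT1, WT2 and WT3. The APAP libraries were close to each other, and the spread lay in the saline libraries, where WT3 had only 16 counts. Means of 14.2 ± 1.07 CPM (SD, n = 2) and 2.21 ± 1.002 CPM (SD, n = 3) gave a difference of 2.69 on the log2 scale (standard error 0.43, adjusted p = 0.0180). The adjusted p was 0.100 without APAP replicate 1, 0.0572 without APAP replicate 3 and 0.0805 without WT2. Of the 50-base words of its transcript, 41.1% also occur in the gene Gm12854, so reads could be divided between them and the level of S100a11 is uncertain.

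Anxa1 (ENSMUSG00000024659, chromosome 19, 20373428 to 20390944, minus strand), a glucocorticoid-induced annexin that dampens leukocyte recruitment through formyl peptide receptors, stood at 10.99 and 10.4 CPM in the APAP libraries. In WT1, WT2 and WT3 it was at 3.59, 2.72 and 3.14 CPM, so the groups did not overlap and varied little within themselves. On the log2 scale it differed by 1.76 (standard error 0.28, adjusted p = 0.0177), with means of 10.7 ± 0.427 CPM (SD, n = 2) and 3.15 ± 0.431 CPM (SD, n = 3). Without APAP replicate 1, APAP replicate 3 or WT2 the adjusted p was 0.113, 0.0675 and 0.0885. Per kilobase of transcript, S100a11 was 4.45 and 4.23 times Anxa1 with APAP and 2.70, 3.12 and 1.12 times Anxa1 with saline, so here the ratio was higher in both APAP libraries.

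S100a6 (ENSMUSG00000001025, chromosome 3, 90612882 to 90624181, plus strand), also called calcyclin, is a gene of proliferating and mesenchymal cells. It reached 10.6 and 6.55 CPM in the APAP libraries and 2.06, 1.73 and 1.74 CPM in WT1, WT2 and WT3. The saline libraries were nearly equal, and APAP replicate 1 was 1.62 times replicate 3. With means of 8.59 ± 2.89 CPM (SD, n = 2) and 1.84 ± 0.190 CPM (SD, n = 3), the fitted difference was 2.22 on the log2 scale (standard error 0.35, adjusted p = 0.0174). It was 1.83 without APAP replicate 1 (adjusted p = 0.132) and 2.17 without WT2 (adjusted p = 0.0881).

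Anxa5 (ENSMUSG00000027712, chromosome 3, 36448923 to 36475894, minus strand) encodes the annexin whose binding to exposed phosphatidylserine is used to stain dying cells. Its level was 179.9 and 109.8 CPM in the APAP libraries and 68.0, 58.1 and 50.9 CPM in WT1, WT2 and WT3. The groups did not overlap, but the APAP libraries differed by 1.64 times. The fitted difference of 1.30 on the log2 scale (standard error 0.27, adjusted p = 0.0400) came from means of 145 ± 49.5 CPM (SD, n = 2) and 59.0 ± 8.60 CPM (SD, n = 3). It was called in 9 of the 13 alternative fits, the fewest of the 6 genes. The adjusted p was 0.228 without APAP replicate 1 (log2 fold change 0.90), 0.0684 without WT1, 0.150 without WT2 and 0.0765 without WT3.

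**Figure D2:**
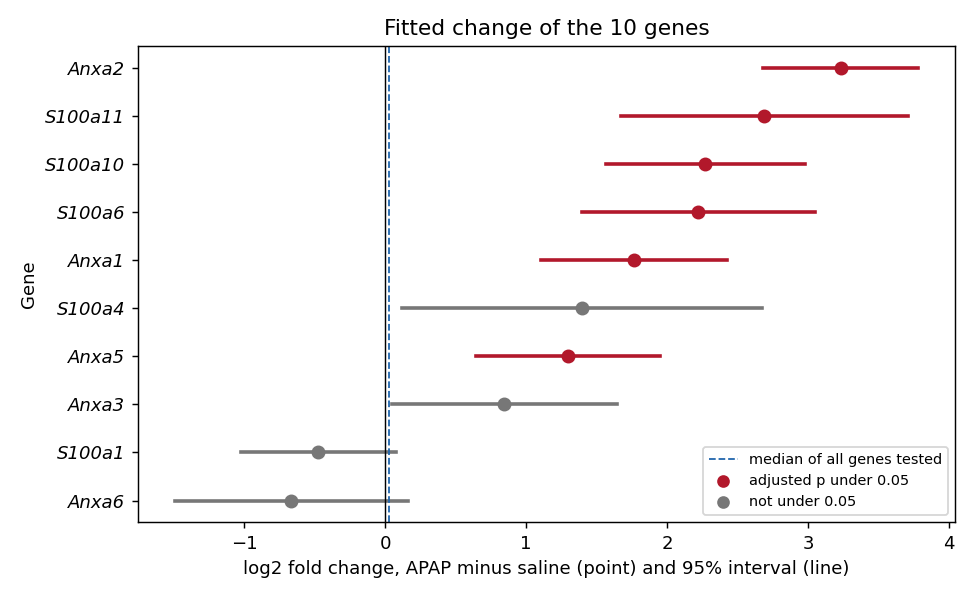
Fitted log2 fold change, APAP minus saline (points), with 95% intervals (lines) for the 10 genes, red where the adjusted p was under 0.05. The 6 red genes lie between 1.30 (Anxa5) and 3.23 (Anxa2), and the dashed line marks the median of all genes tested, 0.03.

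**Figure D3:**
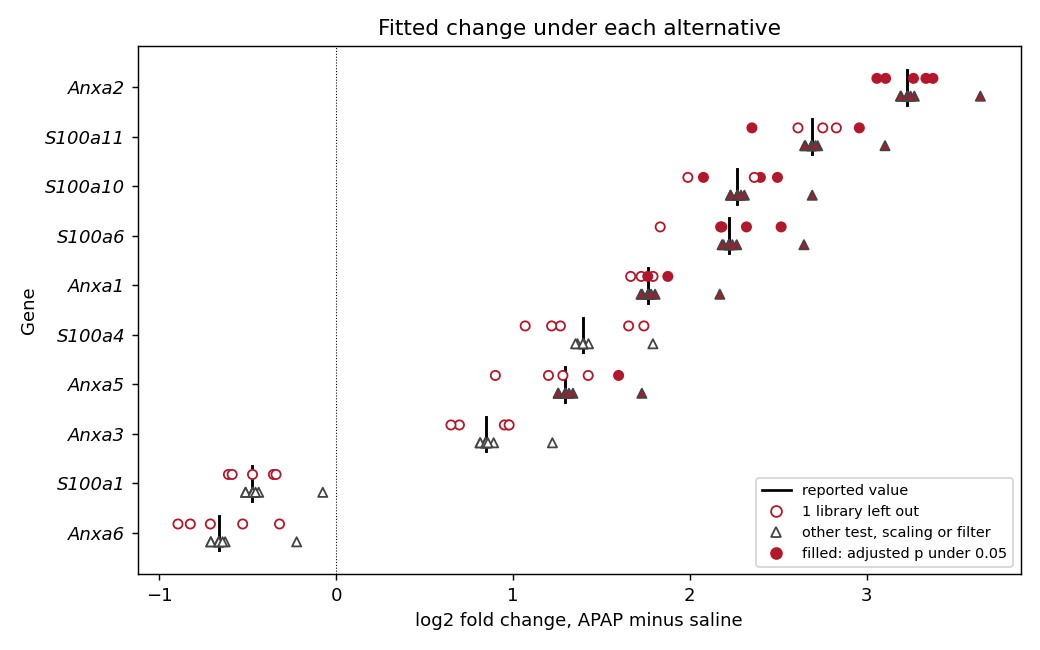
Fitted log2 fold change of each of the 10 genes as reported (line), without 1 library (circles) and with another test, scaling or filter (triangles), filled where the adjusted p was under 0.05. Anxa2 is filled throughout, between 3.06 and 3.64, while Anxa5 is open in 4 of the 5 fits without 1 library.

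The other 4 genes did not pass the test. S100a4 (ENSMUSG00000001020, chromosome 3, 90603771 to 90606045, plus strand), a marker of fibroblasts and macrophages that binds non-muscle myosin, stood at 1.70 and 2.53 CPM in the APAP libraries, against 1.17, 0.664 and 0.601 CPM in saline libraries. Its counts were between 9 and 41 per library, and its log2 fold change of 1.39 (95% interval 0.12 to 2.67) had an adjusted p of 0.168. A further limit is that 56.3% of its 50-base words are shared with the overlapping gene Gm42674, which had 0 counts in all libraries. Anxa3 (ENSMUSG00000029484, chromosome 5, 96793339 to 96845966, plus strand), an annexin known from neutrophils, was at 9.46 and 7.73 CPM after APAP against 3.23, 5.45 and 5.61 CPM after saline. WT1 was the low library, and the log2 fold change of 0.85 (95% interval 0.05 to 1.64) had an adjusted p of 0.179.

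Anxa6 (ENSMUSG00000018340, chromosome 11, 54979108 to 55033445, minus strand), an annexin with a duplicated core that acts in endosomes and cholesterol transport, was at 77.6 and 62.6 CPM after APAP against 157, 104 and 72.6 CPM in WT1, WT2 and WT3. The saline libraries spanned 2.16 times and reached into the APAP range, and the log2 fold change was −0.66 (95% interval −1.49 to 0.16, adjusted p = 0.294). S100a1 (ENSMUSG00000044080, chromosome 3, 90511034 to 90514392, minus strand), best known as a regulator of calcium cycling in heart muscle, was at 60.1 and 71.0 CPM after APAP against 106, 91.3 and 76.0 CPM after saline. Here the groups did not overlap, but the highest APAP library came close to the lowest saline library, and the log2 fold change was −0.47 (95% interval −1.02 to 0.08, adjusted p = 0.264). Both intervals include 0. Scaling to library size only moved the median of all genes tested by 0.39 on the log2 scale and gave −0.22 for Anxa6 and −0.08 for S100a1, neither of which was called.

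The order of the levels per kilobase of transcript was not the same in the 2 groups. In saline livers it ran from S100a1 (135 ± 22.0 CPM per kilobase, SD, n = 3) over S100a10 (68.9 ± 17.0), Anxa6 (44.6 ± 17.1) and Anxa5 (34.1 ± 4.97) down to Anxa2 (5.99 ± 0.941), S100a11 (4.32 ± 1.96), Anxa3 (2.99 ± 0.835), S100a6 (2.52 ± 0.260), Anxa1 (1.88 ± 0.257) and S100a4 (1.63 ± 0.620). In APAP livers S100a10 came first (332 ± 83.9 CPM per kilobase, SD, n = 2), followed by S100a1 (96.8 ± 11.4), Anxa5 (83.7 ± 28.6), Anxa2 (56.2 ± 9.08), Anxa6 (28.1 ± 4.26), S100a11 (27.7 ± 2.09), S100a6 (11.8 ± 3.95), Anxa1 (6.38 ± 0.255), Anxa3 (5.39 ± 0.768) and S100a4 (4.26 ± 1.18). The step below Anxa5 was clear in saline livers, where Anxa5 and Anxa2 did not overlap, whereas S100a10 and Anxa6, Anxa6 and Anxa5, and the neighbors from Anxa2 down to S100a6 overlapped, as did Anxa1 and S100a4. With APAP the neighbors S100a1 and Anxa5, Anxa6 and S100a11, and Anxa3 and S100a4 overlapped. With the summed length of all exons in place of the principal transcript, S100a10 was again first with APAP and S100a1 with saline, but Anxa2 moved from rank 4 to rank 6 with APAP.

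APAP replicate 1 was above replicate 3 for 8 of the 10 genes, S100a1 and S100a4 being the exceptions. Among the saline libraries WT1 was highest for 9 of the 10 genes on the TMM scale, with a TMM factor of 0.783 beside 0.980 and 0.938 in WT2 and WT3. With scaling to library size only, WT1 was highest for 2 genes and WT2 for 7, so this order rests on the scaling.

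The 5 S100 genes lie on chromosome 3 at 2 places. S100a1, S100a4 and S100a6 belong to a block of 11 S100 genes of the lists within 184688 bases (90511034 to 90695721), and S100a11 and S100a10 lie further along the chromosome, 28792 bases from each other. Along the block, the fitted log2 fold changes of the 3 tested genes nearest its start were negative and not called, namely S100a1 (−0.47), S100a13 (−0.80, adjusted p = 0.138) and S100a16 (−0.79, adjusted p = 0.221). Those of the next 5 tested genes, S100a3, S100a4, S100a6, S100a8 and S100a9, were positive. All of them but S100a4 were called, where 3.70% of all genes tested were called higher.

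Promoter sequences from RefSeq (GRCm38.p6) matched 7 of the 10 genes, with no entry for S100a10, Anxa3 and Anxa6. The sequences were searched because 6 of the genes were higher together, but S100a10, which is among these 6, could not be searched. The 250 bases before each start were read on both strands for 6 motifs, chosen after the values had been seen. The AP-1 motif TGANTCA was in 2 of the 7, Anxa2 and S100a11, and in 6.75% of all 32851 promoters (4.85% of the 13009 promoters of tested genes). The GC box GGGCGG was also in these 2 genes, in 32.7% of all promoters and in 54.6% of those of tested genes. The TEAD motif CATTCC was in Anxa1 only (12.6% of all promoters) and the heat-shock element core GAANNTTC in S100a6 only (6.69%). The cyclic AMP response element TGACGTCA (1.55%, and 2.42% for tested genes) and the antioxidant response element TGACNNNGC (10.2%) were in none of the 7. Bases upstream of the gene start of the expression table are shown for Anxa2 and S100a11, which hold the AP-1 letters, and for S100a6, which was also called higher, as a sequence without them. Capitals mark the AP-1 motif.
Anxa2, chr9:69453533-69453619, plus strand: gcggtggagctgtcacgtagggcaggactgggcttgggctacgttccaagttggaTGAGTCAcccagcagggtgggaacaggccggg
S100a11, chr3:93520346-93520487, plus strand: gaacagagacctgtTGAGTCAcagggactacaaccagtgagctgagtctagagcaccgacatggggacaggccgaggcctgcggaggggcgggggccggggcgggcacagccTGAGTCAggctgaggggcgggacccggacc
S100a6, chr3:90612744-90612881, plus strand: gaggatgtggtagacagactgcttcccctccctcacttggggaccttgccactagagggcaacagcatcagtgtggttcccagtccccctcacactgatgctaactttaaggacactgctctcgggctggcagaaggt
The motif began 95 bases before the RefSeq start of Anxa2 and 38 and 136 bases before that of S100a11. These matches are descriptions of the sequence and no binding was measured.

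Other annexin and S100 genes were read in the same fit, where 7.23% of all genes tested were called and 3.70% were called higher. Of 7 further annexins 6 were tested and 1, Anxa7, was called, at 138 and 183 CPM after APAP against 87.3, 71.5 and 78.8 CPM after saline (log2 fold change 1.02, adjusted p = 0.0450). Anxa7, an annexin of secretory granules, was no longer called with DESeq2 size factors (adjusted p = 0.0573) or without any 1 of the 5 libraries (0.0678 to 0.214). Anxa4, an annexin of epithelial cells, was at 63.2 and 79.6 CPM after APAP against 55.5, 44.4 and 32.8 CPM after saline (adjusted p = 0.169), and Anxa11 was at 14.3 and 12.5 CPM against 14.97, 15.1 and 13.4 CPM (adjusted p = 0.783). Of 11 further S100 genes 6 were tested and 3 were called, all higher. S100a8 and S100a9, which form calprotectin in neutrophil granules, were at 24.3 and 11.6 CPM and at 41.5 and 30.3 CPM with APAP. In the saline libraries S100a8 was at 0.179 to 1.002 CPM and S100a9 at 1.13 to 2.004 CPM, and their log2 fold changes were 5.02 (adjusted p = 0.00800, or 0.0576 without WT2) and 4.50 (adjusted p = 0.00181). S100a3, an S100 gene known from hair cuticle, had 85 and 15 counts with APAP and 0 in all saline libraries, which made it at least 13.3-fold higher against a floor of 3 counts per library (adjusted p = 0.0444). This bound was 4.16-fold without APAP replicate 1, where the adjusted p was 0.218, and the call was also lost without WT1, WT2 or WT3 (0.0630 to 0.116).

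Receptors and binding partners of these proteins numbered 21. Of these 20 were tested and 3 were called, all higher, where 7.23% of all genes tested were called and 3.70% were called higher. Myh9, the non-muscle myosin heavy chain bound by S100a4, was at 218 and 249 CPM after APAP against 94.9, 105 and 76.4 CPM after saline (log2 fold change 1.34, adjusted p = 0.0225). Src, a kinase that phosphorylates Anxa2, was at 10.8 and 7.60 CPM against 3.59, 2.39 and 1.47 CPM (log2 fold change 1.90, adjusted p = 0.0450). Ahnak2, a relative of the scaffold Ahnak, was at 3.64 and 2.53 CPM against 0.538, 0.930 and 0.534 CPM (log2 fold change 2.19, adjusted p = 0.0494). Src and Ahnak2 were called in none of the 5 fits without 1 library (adjusted p = 0.0502 to 0.236 and 0.0960 to 0.272), and Myh9 in 1, that without WT3 (0.0394), with 0.0534 to 0.102 in the other 4. Ahnak itself, the giant scaffold that docks on the complex of Anxa2 and S100a10, was at 44.8 and 45.6 CPM against 14.1, 25.4 and 26.3 CPM, with an adjusted p of 0.0818 in the quasi-likelihood test and of 0.0228 in DESeq2. The Anxa1 receptors Fpr1 and Fpr2 were at 3.82 and 5.01 CPM and at 2.64 and 3.46 CPM with APAP, with saline ranges of 2.33 to 3.61 CPM and 1.17 to 1.53 CPM (adjusted p = 0.420 and 0.138). Ager, the receptor for advanced glycation end products that binds several S100 proteins, was at 0.999 and 0.742 CPM after APAP against 0, 0.399 and 1.14 CPM after saline (adjusted p = 0.730). The protease system that the complex assembles was represented by Plg, plasminogen, at 1241 and 1552 CPM against 3217, 2522 and 2156 CPM (adjusted p = 0.147), and Plat, its activator, at 3.995 and 2.29 CPM against 0.179, 0.930 and 0.601 CPM (adjusted p = 0.0790).

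Of 20 genes of plasma membrane repair, all tested, 1 was called, where 7.23% of the genes tested were called. Capn2, the large subunit of a calpain that cleaves cortical proteins at calcium entry, was at 91.5 and 98.5 CPM after APAP against 38.3, 36.2 and 23.9 CPM after saline (log2 fold change 1.54, adjusted p = 0.0194). This call was lost without WT2 (adjusted p = 0.0855), APAP replicate 1 (0.101) or APAP replicate 3 (0.0780). The median log2 fold change of these 20 genes was 0.17. Dysferlin (Dysf), a calcium sensor of resealing, was at 7.17 and 8.10 CPM against 5.38 to 6.35 CPM (adjusted p = 0.401).

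**Figure D4:**
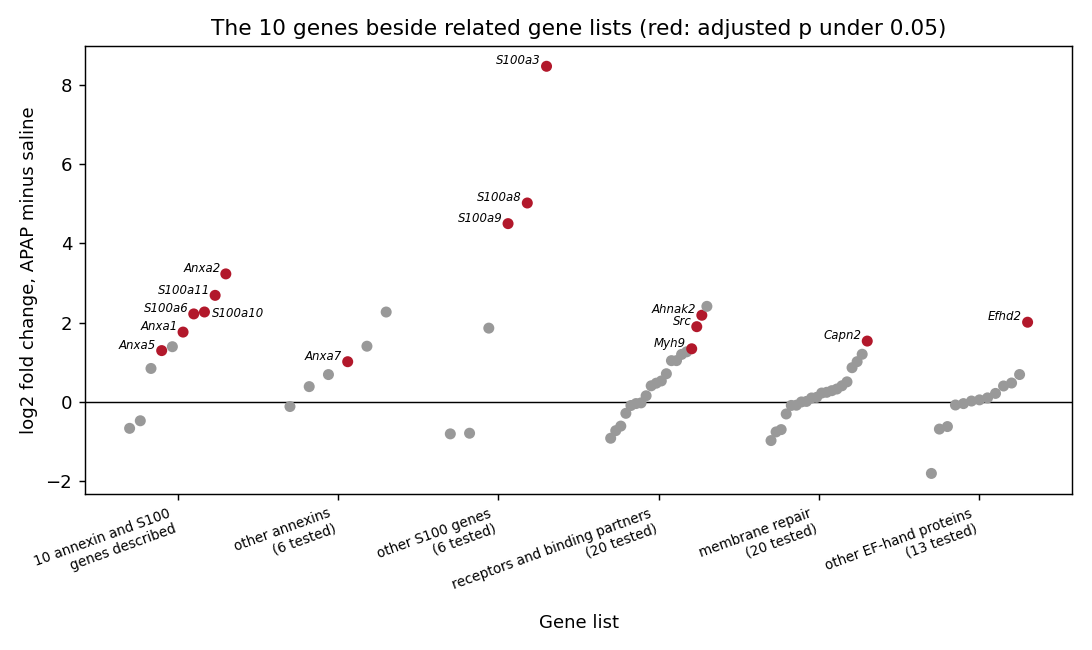
Fitted log2 fold change, APAP minus saline, of each tested gene (1 point each) for the 10 annexin and S100 genes and for 5 lists of related genes, with genes at an adjusted p under 0.05 in red and named. The repair list centers on 0.17 with Capn2 as its called gene, and the value of S100a3 depends on the prior count because it had 0 counts with saline.

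Markers of cell types were read in the same fit, where 7.23% of all genes tested were called and 3.70% were called higher. In bulk liver, fewer cells of a type and less RNA per cell cannot be told apart, nor can more cells and more RNA. Of 14 neutrophil markers 11 were tested and 8 were called, all higher, with a summed level of 139 and 87.2 CPM in the APAP libraries and of 5.85 to 9.95 CPM in saline libraries. Ly6g and Camp had 0 counts in all saline libraries, and S100a8 and S100a9 are on this list. Of 8 monocyte markers 3 were called, Ccr2, Chil3 and F13a1, and the sum was 103 and 166 CPM against 77.2 to 112 CPM. Cholangiocyte markers summed to 369 and 368 CPM against 63.4 to 67.6 CPM, and 2 of 7 tested genes, Spp1 and Sox9, were called. Krt19, a keratin of bile duct cells, was at 23.6 CPM in APAP replicate 1 and at 2.72 CPM in replicate 3, beside 1.25 to 2.54 CPM after saline. The 7 hepatocyte markers summed to 79758 and 120721 CPM with APAP and to 123838 to 166536 CPM after saline. The separation of these sums rested on albumin (Alb). Without Alb the other 6 summed to 28214 and 30923 CPM against 28737 to 37419 CPM, which overlapped. Fgb, a fibrinogen chain, had a positive fitted value (log2 fold change 0.77, adjusted p = 0.252), with both APAP libraries above the saline libraries. Apoa1 also had a positive value (0.57, adjusted p = 0.437), but its groups overlapped. The other 5, Alb, Ttr, Apob, Cps1 and Hnf4a, had negative fitted values. In each of these 5 the groups did not overlap, with the lower levels after APAP, so Alb was not the only marker that separated them. The adjusted p of the 7 was between 0.0776 (Ttr) and 0.604 (Apob). The part of these cell types in the levels of the 10 genes was not tested. The sums of the other lists overlapped between the groups, except that of 6 mesothelial markers, which was 9.46 and 6.92 CPM against 4.30 to 6.18 CPM.

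**Figure D5:**
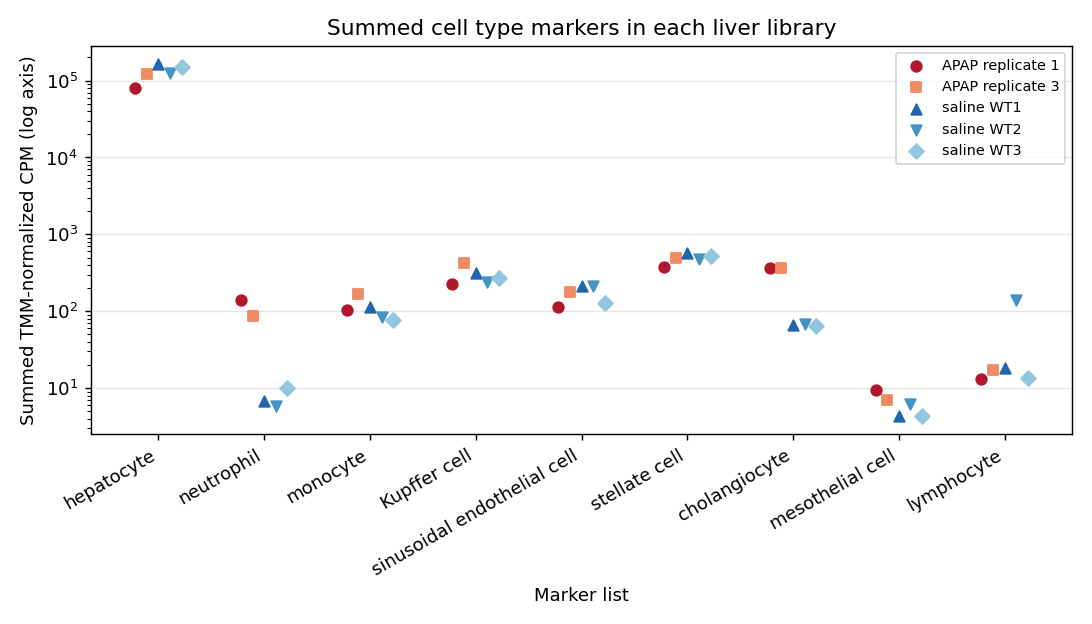
Summed TMM-normalized CPM (log axis) of 9 lists of cell type markers in each library, 1 point per library. Neutrophil sums (139 and 87.2 CPM) and cholangiocyte sums (369 and 368 CPM) in the APAP libraries lie above all saline libraries, and hepatocyte sums lie below them only with Alb included.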

How the data were processed

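Liver RNA of mice given APAP or saline was sequenced by the authors on an Illumina NovaSeq platform. Reads were aligned with HISAT2 (GRCm38, mm10 per the submitters' processing notes), and the raw read count per gene and library was deposited without normalization. Strand setting and program versions are not given in the sources used here. The 5 deposited FPKM columns were not used. The gene coordinates of all 10 members were identical in GENCODE M21.

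Genes were filtered by filterByExpr (minimum count 10, minimum total 15), normalized by TMM and tested by edgeR's quasi-likelihood test (edgeR 4.0.16, R 4.3.3) with Benjamini-Hochberg adjustment over the 13734 genes tested. The fit held the 5 libraries and no covariate. Standard errors are the log2 fold change divided by the square root of F. The fit was tested on counts simulated with the common dispersion of these libraries. There, 72 of 200 genes given a change (36%) and 0 unchanged genes were called, so many true changes went uncalled. Intervals cover the spread between these libraries, and the floor of 3 counts covers counting error only, since reads carry no molecular identifiers.

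The members, gene lists and markers were chosen with earlier results of these data known. All members were named, every gene of a related list with an adjusted p under 0.05, Fpr1, Fpr2, Ager and Ahnak, S100a8, S100a9, Xist, Ddx3y, albumin, and the 5 genes closest to Anxa2. Anxa4, Anxa11, Plg, Plat, Dysf, the uncalled S100 genes of the chromosome 3 block, calmodulin and the single cell type markers were named after their values were seen. Shared words are 50-base words of the principal transcript that occur in transcripts of other genes. No pair of libraries within a group agreed within counting noise, as chi-square over its degrees of freedom was 43.2 to 92.2. Python 3.11.15 and matplotlib 3.10.9 were used for annotation and plots, and DESeq2 1.42.0 for an alternative.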

Additional observations from a re-analysis of the deposited data

How the results depend on the processing

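The 13 alternative fits were the likelihood ratio and exact tests of edgeR, DESeq2, 3 other scalings, 2 other filters and 5 fits without 1 library. All 10 genes kept their direction in each of these fits in which they were tested, and 6 of them were called in each of the 8 fits with all libraries. Without 1 library, the 6 calls ranged from 1 to 5. With a lone APAP library, that library is assumed to vary like the saline libraries. The 993 genes called in all became 1835, 1776 and 2093 with the likelihood ratio test, the exact test and DESeq2, 3228 at an unadjusted threshold (p under 0.05 with a 1.5-fold change or more), and 165 to 922 without 1 library (165 without WT2, 235 without APAP replicate 1). Other annexins (1) became 0 with DESeq2 size factors, 2 with library size only, 2 at the unadjusted threshold and 0 to 0 without 1 library. Other S100 genes (3) became 1 with at least 10 counts in every library and 1 to 3 without 1 library. Receptors and partners (3) became 5, 5 and 7 with the likelihood ratio test, the exact test and DESeq2, 5 with no filter, 9 at the unadjusted threshold and 0 to 1 without 1 library. Membrane repair genes (1) became 2, 2 and 4 with these tests, 3 with library size only, 6 at the unadjusted threshold and 0 to 1 without 1 library. Other EF-hand genes (1) became 2 at the unadjusted threshold and 0 to 1 without 1 library. The cause was not tested. Of the 993 genes called with TMM 508 were higher, whereas with library size only 77.8% of the called genes were higher. No paired analysis was possible because the names WT1, WT2 and WT3 are not tied to the numbered saline samples of the labels, so their numbers pair no samples. S100a4 had the lowest counts of the 10 genes, 9 to 41 per library.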

Other observations

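EF-hand genes outside the S100 family were read for comparison. Of 17 such genes 13 were tested, with a median log2 fold change of 0.05, and 1 was called, where 7.23% of all genes tested were called. Efhd2, a calcium-binding regulator of actin in immune cells, was at 123 and 249.5 CPM after APAP against 45.1, 35.9 and 57.6 CPM after saline (log2 fold change 2.01, adjusted p = 0.0236 in edgeR's quasi-likelihood test). Its adjusted p was 0.0853 without APAP replicate 3, 0.0679 without WT1 and 0.104 without WT2. Calm2, a calmodulin gene and thus of the general calcium sensor of the cell, was at 111 and 129.9 CPM against 119, 99.98 and 92.4 CPM (adjusted p = 0.596).

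With a prior count of 2, which draws the values of genes with few counts together, the 5 genes whose log2 CPM over the 5 libraries, centered on their mean, were closest to those of Anxa2 were Dbp, Prtn3, 5730559C18Rik, Cpne5 and Gsta2, with root mean square differences of 0.0946 to 0.180 on the log2 scale. Dbp, a clock output transcription factor, was at 12.6 and 9.95 CPM after APAP against 1.08, 1.06 and 0.935 CPM after saline. Gsta2, a glutathione transferase, was at 379 and 222 CPM against 38.5, 34.3 and 22.3 CPM. Prtn3, a protease of neutrophil granules, was at 2.94 and 2.66 CPM against 0.179, 0.133 and 0.134 CPM, and 5730559C18Rik and Cpne5 had 0 counts in all saline libraries. The places of these 3 genes rest on the prior count, since their fitted log2 fold changes (4.18, 7.17 and 6.90) were larger than that of Anxa2 (3.23). Of the other annexin and S100 genes described, S100a11, S100a10 and S100a6 came closest, at ranks 54, 79 and 115.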
